A study of Mus musculus with 15 samples.

Results

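The comparison covered the cells carrying the D218G form of GATA1 against the cells carrying wild-type GATA1, 3 arrays in each group, out of 15 mouse arrays in 5 groups. The 6 arrays were chosen by their titles. All 15 were of G1E cells, an immature red cell precursor line of mouse origin that makes no GATA1 of its own. Each group received GATA1 joined to a hormone-binding piece of the estrogen receptor (GATA1-ER), either wild type or with the residue change D218G, D218Y, R216Q or R216W. Every culture in every group, wild type included, had been given 100 nM estradiol for 24 hours, which turns the fusion protein on, so wild type here means cells already maturing. Cells without estradiol were not analysed here. Each group held 3 biological replicates. The sources used here do not say whether a group rests on separate infections or clones. Each was therefore taken as 1 line, so the effect of a residue change and that of its line cannot be told apart. The p-values rest on the spread between cultures of the same line, pooled over all 15 arrays unless another fit is named. The values were deposited log2 expression values of total RNA, in which a difference of 1 is a 2-fold change, for 19933 genes tested. In bulk RNA, fewer cells of a kind and less RNA per cell cannot be told apart.

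GATA1 is the transcription factor that switches immature precursors to red cells and megakaryocytes, the cells that shed platelets. It turns on genes for haem, globin and the red cell membrane, and it turns off genes of the precursor state such as Gata2, Kit and Myc. Its amino-terminal zinc finger touches DNA on one face and the cofactor FOG1, the product of Zfpm1, on the other. Changes at this finger are known from families with low platelet counts and varying anemia. Maturing red cell precursors also slow their division and wind down ribosome production, and they need cholesterol for new membrane.

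The transgene product was measured first. Gata1 read 12.35, 12.33 and 12.38 in the D218G arrays and 12.35, 12.36 and 12.36 in the wild type arrays, all close to the top of the array range. The groups overlapped (log2 fold change -0.00 ± 0.03 SE, adjusted p = 0.961 by limma). The two-sided exact permutation p was 0.8, and 0.1 is the smallest that 3 against 3 arrays can give. Whether the probe set also reads the disrupted Gata1 locus of these cells was not examined. In the other mutant lines Gata1 was lower than in D218G, at 12.16, 12.15 and 12.14 in R216Q, 12.24, 12.25 and 12.26 in R216W and 12.07, 12.05 and 12.08 in D218Y (differences 0.20, adjusted p = 2.41e-04, 0.10, adjusted p = 0.0209 and 0.29, adjusted p = 2.20e-06). Its part in the comparisons with those lines was not tested. Of 10 markers of red cell precursors, 9 lay between 10.66 and 12.25 in the D218G arrays. The other, Epb42, lay between 7.60 and 7.94.

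The third D218G array was unlike its group. The median absolute difference per gene was 0.056 between replicates 1 and 2, but 0.103 between replicates 1 and 3 and 0.125 between replicates 2 and 3. Pairs of wild type arrays differed by 0.063 to 0.090. The array medians were 6.51, 6.55 and 6.37 in D218G and 6.50, 6.44 and 6.56 in wild type. Replicate 3 lay outside the other D218G arrays by at least 0.5 for 46 genes above and 30 below. Counts against wild type are therefore given with and without it.

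With all arrays, 3601 of 19933 genes differed between D218G and wild type at an adjusted p under 0.05 by limma (18.1%), 2053 higher (10.3%) and 1548 lower (7.77%). Without replicate 3 the count was 3598 (18.1%), with 1759 higher (8.82%) and 1839 lower (9.23%). The same direction was called in both fits for 1651 genes higher and 1418 lower. A further 402 higher and 130 lower were called only when replicate 3 was included, and 108 higher and 421 lower only when it was left out. No gene (0) was called in opposite directions. The median log2 fold change over all genes was -0.02 with and 0.01 without replicate 3. A change of at least 2-fold was reached by 19 genes higher and 25 lower, or 15 and 29 without replicate 3. In parentheses below, a value with ± is the log2 fold change of D218G over wild type with its standard error, and a gene is said to have risen or fallen only where it passed this threshold with all arrays. When the fit held only the 6 arrays compared, 2106 of 19933 genes passed, 1217 higher and 889 lower. These are the counts over all genes for each list count from the 6 arrays alone. The median SD per gene was 0.079 in D218G and 0.063 in wild type, but 0.050 to 0.055 in the other lines, which share the main fit. The share of genes called grew with level. With genes split by mean level into 4 equal bins, 18 of 4984 rose and 44 fell in the lowest. In the highest bin 1066 of 4983 rose and 993 fell. The shares of all genes given beside the lists below are not matched for level.

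**Figure D1:**
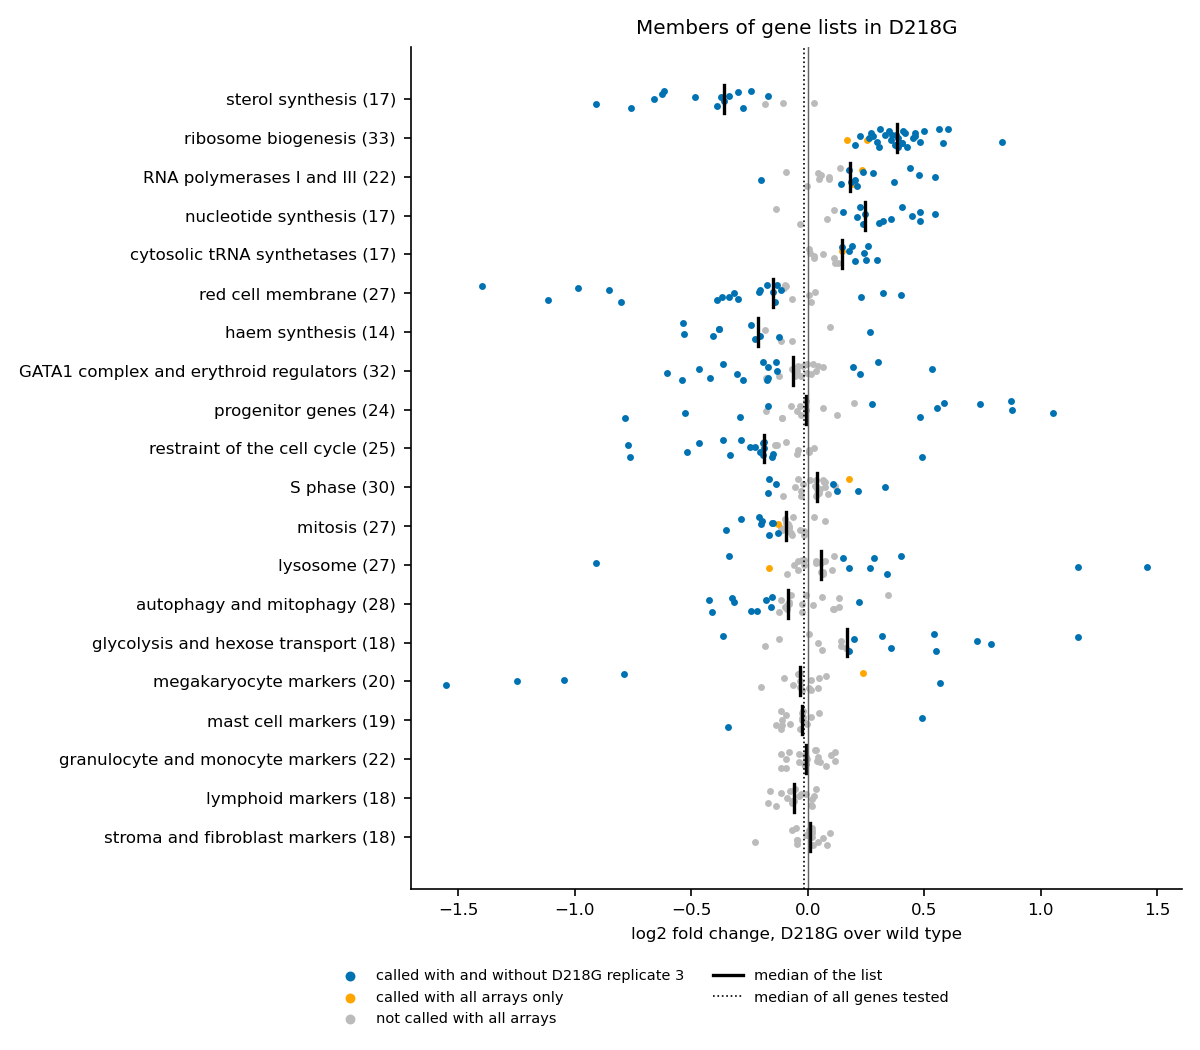
Log2 fold change of D218G over wild type (x axis) for each measured member of 20 gene lists (y axis, members measured in brackets). Blue points were called with and without replicate 3, orange with all arrays only, and grey were not called with all arrays. Black bars are list medians, and the dotted line is the median over all genes. The 33 ribosome biogenesis genes all lie right of 0, while the sterol synthesis genes lie left of it except 1.

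Genes of cholesterol synthesis were lower in D218G than in wild type. Of 17 measured members 14 fell and 0 rose (median -0.36), against 7.77% of all genes lower, and 15 fell without replicate 3 (median -0.35). The fall was found from the first steps to the last. Hmgcs1, which makes the precursor HMG-CoA at the head of the pathway, read 9.44, 9.35 and 9.53 in the D218G arrays and 10.33, 10.45 and 10.27 in the wild type arrays. Every D218G array was below every wild type array (log2 fold change -0.91 ± 0.05 SE, adjusted p = 2.68e-08, 1.88-fold lower), also without replicate 3 (-0.95, adjusted p = 3.37e-08).

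In the following steps, which build the isoprene units and join them to squalene, Mvk (-0.28 ± 0.04), Mvd (-0.36 ± 0.04), Idi1 (-0.66 ± 0.06), Fdps (-0.37 ± 0.04) and Fdft1 (-0.62 ± 0.05) fell. Pmvk, the second of the mevalonate kinases, was at -0.11, adjusted p = 0.254. Sqle, the oxygenase that starts ring formation, fell by 0.48 ± 0.05, and Lss, the enzyme that closes the ring to lanosterol, fell by 0.39 ± 0.04.

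Cyp51, which removes the first methyl group from lanosterol, read 8.73, 8.69 and 8.93 in the D218G arrays and 9.53, 9.62 and 9.48 in the wild type arrays. The groups did not overlap, and D218G replicate 3 was the highest of its group (log2 fold change -0.76 ± 0.06 SE, adjusted p = 5.20e-07, or -0.83, adjusted p = 8.24e-08 without that array). Msmo1 (-0.62 ± 0.04), Nsdhl (-0.17 ± 0.03) and Hsd17b7 (-0.30 ± 0.06), which act on the remaining methyl groups, also fell. At the end of the pathway, Sc5d (-0.24 ± 0.05) and Dhcr7 (-0.34 ± 0.04), which makes cholesterol itself, fell. Ebp, the isomerase before them, was at 0.03, adjusted p = 0.772. The sterol reductase gene Tm7sf2 was at -0.18, adjusted p = 0.0929, and it was called without replicate 3 (-0.28, adjusted p = 0.00295).

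**Figure D2:**
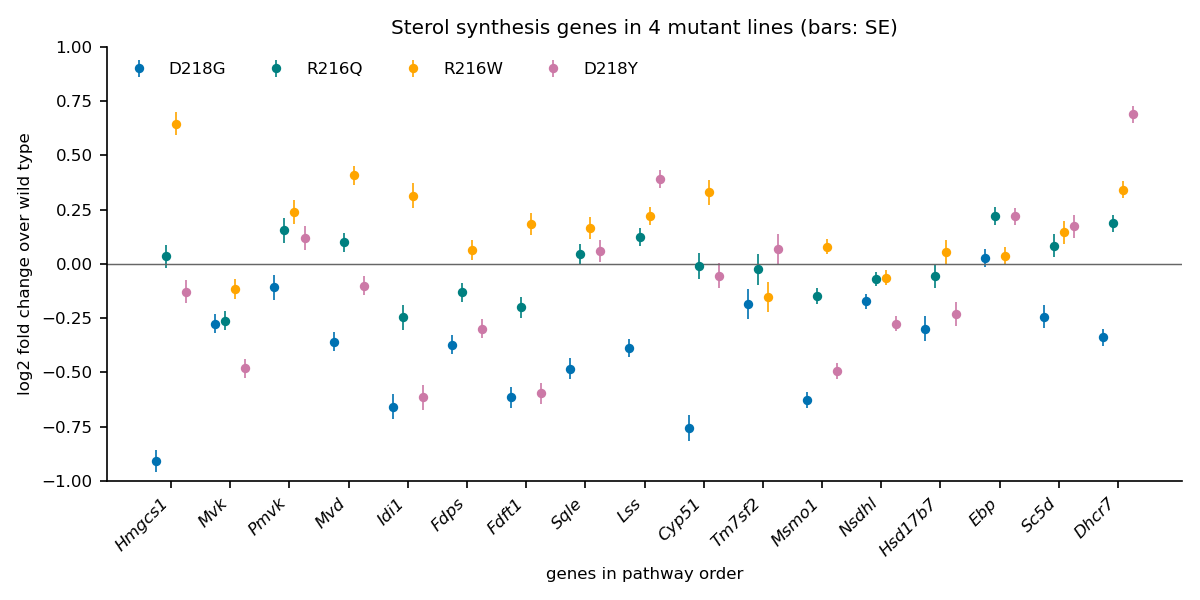
Log2 fold change over wild type (y axis) with its SE for 17 sterol synthesis genes in pathway order (x axis), in the D218G, R216Q, R216W and D218Y lines. All 4 lines share the same 3 wild type arrays as reference. D218G points lie lowest at Hmgcs1 (-0.91) and Cyp51 (-0.76), where R216W points lie above 0.

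The fold changes in the other mutant lines share the wild type arrays with D218G, so the lines were also compared directly. D218G was lower than R216W in 15 of 17 sterol genes (0 higher, 10.7% of all genes lower and 11.3% higher in that comparison). It was lower than R216Q in 14 (0 higher, against 6.52% lower and 6.87% higher of all genes). It was lower than D218Y, which has tyrosine in place of glycine at the same residue, in 11 and higher in 2 (17.4% lower and 15.6% higher of all genes). Without replicate 3 D218G was lower than R216W in 15 genes (12.4% of all genes lower, 11.6% higher), lower than R216Q in 15 (8.76% lower, 6.32% higher), and lower than D218Y in 11 with 1 higher. That last comparison depended most on replicate 3 over all genes, with 26.2% higher and 19.8% lower when it was left out. Hmgcs1 read 10.36, 10.38 and 10.41 in R216Q, 10.99, 11.04 and 10.96 in R216W and 10.20, 10.21 and 10.26 in D218Y. D218G was thus the lowest of the 5 lines for this gene, by -0.94, -1.55 and -0.78 against these lines (largest adjusted p = 1.71e-08). Mvk (0.21, adjusted p = 0.00189) and Nsdhl (0.10, adjusted p = 0.0322) were the 2 members higher than in D218Y. Idi1 (-0.04, adjusted p = 0.592) and Fdft1 (-0.02, adjusted p = 0.802) did not pass against D218Y.

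Fewer genes of sterol uptake, efflux and control were called than of sterol synthesis. Of 15 measured, 4 fell and 2 rose (median -0.03), against 7.77% lower and 10.3% higher of all genes. Without replicate 3 the counts were 3 and 2, against 9.23% and 8.82%. In the 6 arrays alone they were 3 and 0, against 889 and 1217 of all 19933 genes. Insig1, whose protein holds the sterol sensor in the endoplasmic reticulum and whose transcript is itself a sterol-regulated target, fell (-0.34 ± 0.06), as did Srebf2, the transcription factor that turns on sterol synthesis (-0.26 ± 0.04), and Stard4, a sterol carrier (-0.26 ± 0.04). Scap, the sensor that escorts that factor, was at -0.13, adjusted p = 0.0332 with all arrays and at -0.13, adjusted p = 0.055 without replicate 3. Srebf1, the related factor of fatty acid synthesis, was at 0.05, adjusted p = 0.511. Nceh1, which frees stored cholesterol from its esters, rose by 0.36 (adjusted p = 0.00377, but 0.0536 when the 6 arrays were fitted alone). Of 15 fatty acid synthesis genes 6 rose and 3 fell, with the same counts without replicate 3 (4 and 1 in the 6 arrays alone). These stand beside 10.3% higher and 7.77% lower of all genes, or 8.82% and 9.23% without replicate 3. In the 6 arrays alone 1217 of all 19933 genes were higher and 889 lower. Acaca, the first committed enzyme, rose (0.25 ± 0.04) and Me1, which supplies NADPH, rose (0.53 ± 0.08), whereas Acsl4, which activates long-chain fatty acids, fell (-0.55 ± 0.04).

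The promoters of these genes were searched for short motifs, because sterol genes share a binding site for the Srebf factors. Windows from RefSeq (GRCm38.p6) ran from 250 bases before to 50 after the start of a gene, and 14 of the 17 sterol genes had 1 or more of the 17 windows found. Both strands were searched. CCAAT, the site that the factor NF-Y binds, was in 82.4% of sterol gene windows and in 1 or more windows of all 14 genes, against 37.4% of all 32851 windows. TCACNCCAC, a form of the sterol regulatory element, was in 1 window (5.88%, against 1.24% of all windows). CACGTG, the E-box that Myc and related factors bind and that reads alike on both strands, was in 17.6% against 7.15%. The GATA forms AGATAA as well as TGATAA, together with AGATAG as well as TGATAG, were in 17.6% against 29.8%. A match is a description of letters and not a site, and other forms of these motifs were not searched. The Hmgcs1 window, shown because this gene had the largest fall of the list, is at chr13:119690101-119690400, plus strand. Each window is printed in the direction of its gene. The capitals mark the sterol regulatory element, whose first base is at -137 counted from the start site.
Hmgcs1: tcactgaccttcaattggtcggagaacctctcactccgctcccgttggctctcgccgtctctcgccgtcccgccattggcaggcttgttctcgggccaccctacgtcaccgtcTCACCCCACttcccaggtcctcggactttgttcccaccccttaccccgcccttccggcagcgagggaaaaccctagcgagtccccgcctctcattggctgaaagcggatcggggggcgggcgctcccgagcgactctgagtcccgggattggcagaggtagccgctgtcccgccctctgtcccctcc

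Ribosome biogenesis genes were higher in D218G than in wild type. All 33 measured members rose (median 0.38), against 10.3% of all genes higher, and 31 rose without replicate 3 (median 0.35), when Npm1 and Ncl no longer passed. Rrp1b, a nucleolar protein of large-subunit assembly, read from 8.99 to 9.13 in the 3 D218G arrays and 8.20, 8.22 and 8.20 in the wild type arrays. The groups were far apart, with D218G replicate 3 the highest array (log2 fold change 0.83 ± 0.05 SE, adjusted p = 2.85e-08, 1.78-fold higher). Rrp9, which processes the ribosomal RNA precursor with the U3 small RNA, read 9.77, 9.83 and 9.78 in the D218G arrays and 9.16, 9.12 and 9.28 in the wild type arrays (log2 fold change 0.60 ± 0.05 SE, adjusted p = 4.95e-07). The groups did not overlap, and replicate 3 lay between the other D218G arrays. Tsr1 (0.58 ± 0.06) and Nolc1 (0.56 ± 0.04), an assembly factor of the small subunit and a nucleolar chaperone, also rose. The smallest rises were those of Ncl (0.17 ± 0.05), the nucleolar protein nucleolin, and Nop56 (0.20 ± 0.03), a core protein of the small RNA particles that methylate ribosomal RNA.

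The same gene list was higher still in D218Y. D218G was lower than D218Y in 33 of 33 members (median difference -0.55), against 17.4% of all genes lower. It was higher than R216W in 28 with 0 lower, against 11.3% higher and 10.7% lower of all genes. Against R216Q 3 were higher and 3 lower, beside 6.87% and 6.52% of all genes. Without replicate 3 these counts were 33 lower, 26 higher, and 3 and 3. The shares of all genes were then 19.8%, 11.6%, and 6.32% and 8.76%. Rrp1b read 10.23, 10.24 and 10.19 in D218Y, 9.12, 9.13 and 9.19 in R216Q and 8.50, 8.66 and 8.60 in R216W. D218G lay below D218Y (-1.18, adjusted p = 9.27e-11), above R216W (0.45, adjusted p = 4.00e-06) and was not told apart from R216Q (-0.10, adjusted p = 0.218).

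The polymerases that transcribe ribosomal and transfer RNA followed in part. Of 22 genes of RNA polymerases I and III 13 rose and 1 fell (11 and 1 without replicate 3, 7 and 0 in the 6 arrays alone). Over all genes 10.3% rose and 7.77% fell, or 8.82% and 9.23% without replicate 3. In the 6 arrays alone 1217 of all 19933 genes were higher and 889 lower. Polr1e (0.55 ± 0.06), Polr1b (0.48 ± 0.04) and Polr1a (0.44 ± 0.03), subunits of polymerase I, and its initiation factor Rrn3 (0.37 ± 0.04) rose. The 1 that fell was Maf1, a repressor of polymerase III (-0.20, adjusted p = 0.00413). Myc, the factor that drives much of this gene group, read 11.25, 11.28 and 11.32 in the D218G arrays and 10.84, 10.78 and 10.78 in the wild type arrays. The groups did not overlap (log2 fold change 0.48 ± 0.05 SE, adjusted p = 2.92e-06).

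Of 17 nucleotide synthesis genes 13 rose and 0 fell (median 0.24), or 13 and 1 without replicate 3, when the CTP synthase gene Ctps2 was called lower. Beside each count in this paragraph stand 10.3% of all genes higher and 7.77% lower, or 8.82% and 9.23% without replicate 3. For the 6 arrays alone 1217 of all 19933 genes were higher and 889 lower. Cad, which carries the first steps of pyrimidine synthesis, rose by 0.55 ± 0.04, the CTP synthase gene Ctps by 0.48 ± 0.06 and Pfas of the purine pathway by 0.48 ± 0.04. Of 17 cytosolic tRNA synthetase genes 9 rose and 0 fell, or 8 and 0 without replicate 3, led by Yars (0.30 ± 0.04) and Farsb (0.26 ± 0.04). Among 28 translation initiation factors 8 rose and 1, Eif5b, fell (-0.31 ± 0.04), the same counts as without replicate 3 (4 and 1 in the 6 arrays alone). Of 23 chaperone genes 8 rose and 1 fell, but 3 and 1 without replicate 3. The mitochondrial chaperone genes Hspa9 (0.30 ± 0.04) and Hspd1 (0.25 ± 0.03) rose in both fits, and subunits of the cytosolic chaperonin, such as Cct3 (0.12, adjusted p = 0.029), were called only with replicate 3 included. Srm and Odc1, the spermidine synthase and the first enzyme of polyamine synthesis, were the 2 polyamine genes of 9 that rose (0.79 ± 0.05 and 0.66 ± 0.04), and Smox, which oxidises spermine, fell (-0.73 ± 0.08). All 3 were called without replicate 3 too. Odc1 was also higher than in R216Q (0.40, adjusted p = 4.40e-06), R216W (0.87, adjusted p = 4.43e-10) and D218Y (0.19, adjusted p = 0.00107).

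The E-box CACGTG was in 29.0% of the 31 promoter windows of the ribosome biogenesis genes, against 7.15% of all windows. The Tsr1 window, shown as the member with the largest rise whose window holds this motif, is at chr11:74897830-74898129, plus strand, with the E-box in capitals starting at position 25 after the start site.
Tsr1: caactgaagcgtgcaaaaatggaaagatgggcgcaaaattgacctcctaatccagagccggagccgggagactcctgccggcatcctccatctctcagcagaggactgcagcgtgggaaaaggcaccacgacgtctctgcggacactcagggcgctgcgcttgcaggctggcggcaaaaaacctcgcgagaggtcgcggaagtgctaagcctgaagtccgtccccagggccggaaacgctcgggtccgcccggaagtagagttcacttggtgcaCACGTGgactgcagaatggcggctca

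Genes of the mature red cell were lower in D218G than in wild type, and mostly higher than in D218Y. In the red cell membrane list of 27 genes, 17 fell and 3 rose (median -0.15), against 7.77% lower and 10.3% higher of all genes. Without replicate 3 the counts were the same, against 9.23% and 8.82%. Against D218Y 20 were higher and 3 lower (15.6% and 17.4% of all genes), or 21 and 3 without replicate 3 (26.2% and 19.8%). When the 6 arrays were fitted alone, 11 were lower and 3 higher, against 889 and 1217 of all 19933 genes. Slc4a1, the band 3 anion exchanger, read 11.30, 11.32 and 11.26 in the D218G arrays and 12.43, 12.45 and 12.36 in the wild type arrays. The groups were separated by about a unit, and the D218G arrays lay close together (log2 fold change -1.11 ± 0.05 SE, adjusted p = 4.24e-09, 2.16-fold lower). The D218Y arrays were at 6.77, 6.93 and 6.72, which put D218G above D218Y by 4.49 (adjusted p = 4.64e-16). R216Q arrays were at 11.33, 11.29 and 11.43, not told apart from D218G (-0.05, adjusted p = 0.692). R216W arrays, at 12.28, 12.31 and 12.27, were higher than those of D218G (difference -0.99, adjusted p = 2.81e-09).

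Slc14a1, the urea transporter of the red cell, had the largest fall of the membrane list (-1.40 ± 0.07). Epb42, the protein 4.2 that ties band 3 to the skeleton, read 7.71, 7.60 and 7.94 in the D218G arrays and 8.79, 8.64 and 8.79 in the wild type arrays. Replicate 3 was the highest D218G array but still below all wild type arrays (log2 fold change -0.99 ± 0.08 SE, adjusted p = 5.31e-07, or -1.08, adjusted p = 9.53e-08 without it). The actin capping genes Tmod3 (-0.85 ± 0.04) and Tmod1 (-0.80 ± 0.06) fell. The ankyrin gene Ank1 fell by 0.18 ± 0.03, and Sptb, the beta spectrin gene, was at -0.10, adjusted p = 0.0724. The 3 that rose were Stom, a protein of membrane rafts (0.40 ± 0.04), the glucose transporter gene Slc2a1 (0.32 ± 0.07) and the tropomyosin gene Tpm1 (0.23 ± 0.04).

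Of 14 haem synthesis and transport genes 9 fell and 1 rose (median -0.21), against 7.77% lower and 10.3% higher of all genes. Without replicate 3 they were 10 and 1, against 9.23% and 8.82%. Alas2, which starts haem synthesis in red cell precursors, read 11.78, 11.80 and 11.79 in the D218G arrays and 12.34, 12.35 and 12.29 in the wild type arrays. The spread within each group was small and the groups did not overlap (log2 fold change -0.53 ± 0.06 SE, adjusted p = 1.06e-05). The mitochondrial carrier gene Slc25a39 (-0.53 ± 0.03) and the enzymes Uros (-0.41 ± 0.04), Urod (-0.38 ± 0.03) and Fech (-0.24 ± 0.05) fell, whereas Ppox, the last enzyme but one, rose (0.27 ± 0.04). In D218Y all of these but Ppox were lower than in D218G, as were 12 of 14 members in all with 0 higher. The count was 12 without replicate 3, where D218G was above D218Y in 15.6% of all genes with all arrays and 26.2% without that replicate. Uros was higher in D218G than in R216Q and in R216W (differences 0.46 and 0.45, adjusted p = 5.72e-07 and 2.17e-07).

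Of 5 globin genes measured 3 fell and 0 rose, with and without replicate 3. The shares of all genes were 7.77% lower and 10.3% higher, or 9.23% and 8.82% without it. Hba-x, the embryonic alpha-like globin, read 7.64, 7.64 and 7.59 in the D218G arrays and 9.78, 9.58 and 9.60 in the wild type arrays (log2 fold change -2.03 ± 0.07 SE, adjusted p = 2.42e-10, 4.08-fold lower). The groups were about 2 units apart. Hbq1b, a theta-globin gene near-identical to Hbq1a, fell (-0.72 ± 0.08), with shared signal between the copies not told apart. Hbb-bh1, an embryonic beta-like globin, was not called (log2 fold change 0.17 ± 0.10 SE, adjusted p = 0.332), although its D218G arrays were all above the wild type arrays. Hbb-y fell (log2 fold change -0.39 ± 0.11 SE, adjusted p = 0.0185), but the call was lost without wild type replicate 2 or 3, or without D218G replicate 1 or 2 (largest adjusted p = 0.0805, without D218G replicate 2). The adult globin genes were not analysed here.

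Iron handling genes went both ways, with 6 of 20 higher and 5 lower in both fits (6 and 3 in the 6 arrays alone). Over all genes 10.3% were higher and 7.77% lower, or 8.82% and 9.23% without replicate 3. In the 6 arrays alone 1217 of all 19933 genes were higher and 889 lower. Aco1, an iron-sensing protein that binds RNA, fell (-0.56 ± 0.03), as did Erfe, the hormone erythroferrone (-0.43 ± 0.04), and Tfrc, the transferrin receptor (-0.21 ± 0.03). Hmox2, the constitutive haem oxygenase (0.48 ± 0.05), Tfr2, the second transferrin receptor (0.41 ± 0.06), Hmox1, the inducible haem oxygenase (0.40 ± 0.09), and Slc11a2, an iron importer (0.31 ± 0.04), rose. Slc11a2, Steap3 and Hmox2 were higher in D218G than in every other line, and Aco1 was lower.

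GATA motifs were in 38.9% of the 36 promoter windows of the red cell membrane and haem synthesis genes, against 29.8% of all windows. The Epb42 window is shown as an example of a membrane gene that fell and whose window holds a GATA form. It lies at chr2:121036828-121037127, minus strand, with the motif on the opposite strand in capitals from position -226.
Epb42: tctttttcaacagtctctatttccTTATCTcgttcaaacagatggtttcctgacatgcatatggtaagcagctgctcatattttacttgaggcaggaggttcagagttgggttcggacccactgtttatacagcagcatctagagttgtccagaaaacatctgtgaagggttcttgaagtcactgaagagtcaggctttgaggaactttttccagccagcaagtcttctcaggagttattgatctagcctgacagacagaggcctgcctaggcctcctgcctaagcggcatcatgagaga

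The named core genes of the GATA1 complex lay within 0.30 of wild type on the log2 scale, while several other regulators of red cells fell by more. Of 32 genes of the complex and erythroid regulators 13 fell and 4 rose (median -0.06), against 7.77% lower and 10.3% higher of all genes. Without replicate 3 they were 14 and 4, against 9.23% and 8.82%. In the 6 arrays alone they were 8 and 4, against 889 and 1217 of all 19933 genes. Zfpm1, which encodes FOG1, was at -0.04, adjusted p = 0.545, Klf1 at -0.01, adjusted p = 0.961 and the repressor gene Gfi1b at -0.04, adjusted p = 0.471. Of the core complex, Ldb1, the looping factor, rose (0.22 ± 0.03) and Lmo2, the bridging protein, rose (0.30 ± 0.04). Tal1, their DNA-binding partner, fell by 0.14 ± 0.04 (adjusted p = 0.0145), which was lost in the 6 arrays alone (adjusted p = 0.0994) and without wild type replicate 2 or D218G replicate 2 (0.0532 and 0.0516). Runx1 (-0.60 ± 0.04), a factor of blood stem cells and megakaryocytes, Sox6 (-0.54 ± 0.04) and Nfe2 (-0.42 ± 0.04), which act in maturing red cells and platelets, fell. E2f4, an E2F factor needed for red cell maturation, rose (0.53 ± 0.04).

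Progenitor genes divided. Of 24 measured, 8 rose and 4 fell, in both fits. The shares of all genes were 10.3% higher and 7.77% lower, or 8.82% and 9.23% without replicate 3. Gata2, the progenitor factor that GATA1 displaces, read 7.99, 8.02 and 8.06 in the D218G arrays and 8.29, 8.25 and 8.41 in the wild type arrays. Every D218G array was below every wild type array (log2 fold change -0.29 ± 0.04 SE, adjusted p = 1.79e-04). In the other mutant lines Gata2 was higher than in D218G, at 9.48, 9.49 and 9.48 in R216Q, 9.51, 9.59 and 9.61 in R216W and 11.17, 11.15 and 11.16 in D218Y. Kit, the stem cell factor receptor, read 10.04, 10.05 and 10.10 in the D218G arrays and 9.54, 9.56 and 9.42 in the wild type arrays and rose (log2 fold change 0.55 ± 0.04 SE, adjusted p = 2.40e-07), and the groups did not overlap. Myb (0.88 ± 0.03), which holds precursors in division, the adhesion receptor gene Cd44 (1.05 ± 0.05), Hhex (0.74 ± 0.10), a homeobox factor, and Egfl7 (0.87 ± 0.05), a secreted factor, rose. Spi1, the myeloid factor PU.1, fell (-0.78 ± 0.10), as did Ikzf2 (-0.53 ± 0.07), an Ikaros family factor.

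Fli1, the Ets factor that favours megakaryocytes, read 7.83, 7.70 and 7.88 in the D218G arrays and 7.22, 7.25 and 7.18 in the wild type arrays and rose (log2 fold change 0.58 ± 0.07 SE, adjusted p = 2.26e-05). It was also above R216Q (1.12, adjusted p = 4.33e-08), R216W (0.75, adjusted p = 9.52e-07) and D218Y (0.86, adjusted p = 1.29e-07). Of 20 megakaryocyte markers 4 fell and 2 rose, against 7.77% lower and 10.3% higher of all genes. Without replicate 3 they were 4 and 1, against 9.23% and 8.82%. The median log2 fold change of the list was -0.03, or 0.02 without replicate 3. Plek, a platelet signalling protein, read 8.37, 8.33 and 8.67 in the D218G arrays and 9.98, 10.10 and 9.95 in the wild type arrays, and the groups did not overlap (log2 fold change -1.55 ± 0.08 SE, adjusted p = 6.78e-09). Tubb1, the platelet tubulin (-1.25 ± 0.09), Gp9, a subunit of the von Willebrand factor receptor (-1.05 ± 0.06), and Itgb3, the fibrinogen receptor subunit (-0.79 ± 0.05), fell. P2rx1, an ATP receptor of platelets, rose (0.57, adjusted p = 7.02e-05), and Gp5 was called only with replicate 3 included (0.24, adjusted p = 0.0497). Itga2b (-0.20, adjusted p = 0.0529) and Pf4 (-0.10, adjusted p = 0.251), defining markers, were not called.

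Among 26 genes of cytokine receptors and JAK-STAT signalling 7 rose and 6 fell (6 and 6 without replicate 3). Over all genes 10.3% rose and 7.77% fell, or 8.82% and 9.23% without replicate 3. Il9r, the interleukin 9 receptor, read 7.48, 7.67 and 7.62 in the D218G arrays and 9.03, 8.98 and 9.02 in the wild type arrays, without overlap (log2 fold change -1.42 ± 0.05 SE, adjusted p = 1.37e-10, 2.68-fold lower). The arrays read 10.00, 9.98 and 9.93 in R216Q, 10.81, 10.76 and 10.82 in R216W and 7.89, 7.95 and 7.88 in D218Y, so that the R216 lines were above wild type and both D218 lines below it. Il10rb, a shared subunit of the interleukin 10 family receptors, rose (0.70 ± 0.05). Epor, the erythropoietin receptor, was at -0.14, adjusted p = 0.0129, which was lost in the 6 arrays alone (adjusted p = 0.127) and without wild type replicate 3 (0.0611). Il4ra was at -0.14, adjusted p = 0.169.

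Of 31 immediate early genes and feedback genes of MAPK signalling 5 fell and 3 rose in both fits. The shares of all genes were 7.77% lower and 10.3% higher, or 9.23% and 8.82% without replicate 3. The AP-1 factor genes Jun (-0.55 ± 0.07) and Junb (-0.23 ± 0.03), the signalling inhibitor gene Spry1 (-0.50 ± 0.05) and the phosphatase gene Dusp1 (-0.33 ± 0.04) fell, and Etv5, an Ets factor (0.71 ± 0.07), and the early growth response gene Egr1 (0.33 ± 0.06) rose. Of 17 Bcl2 family genes 2 fell and 1 rose, near the 18.1% of all genes called. Without replicate 3 they were 1 and 0, which left Bcl2l1, the survival factor Bcl-xL that GATA1 turns on (-0.47 ± 0.03). Bcl2 was at 0.24, adjusted p = 0.0455 with all arrays and at 0.12, adjusted p = 0.139 without replicate 3. The median level of 25 interferon response genes ran from 6.35 to 6.53 over the 6 arrays. Of these genes 1 rose and 2 fell (1 and 3 without replicate 3), beside 18.1% of all genes called, a share not matched for level. They were Usp18, which removes the ubiquitin-like ISG15 (0.86 ± 0.05), the factor gene Irf9 (-0.43 ± 0.05) and the RNA sensor gene Ifih1 (-0.21 ± 0.07), whose call was lost in the 6 arrays alone (adjusted p = 0.151) and without any array other than wild type replicate 3 or D218G replicate 3 (up to 0.152).

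**Figure D3:**
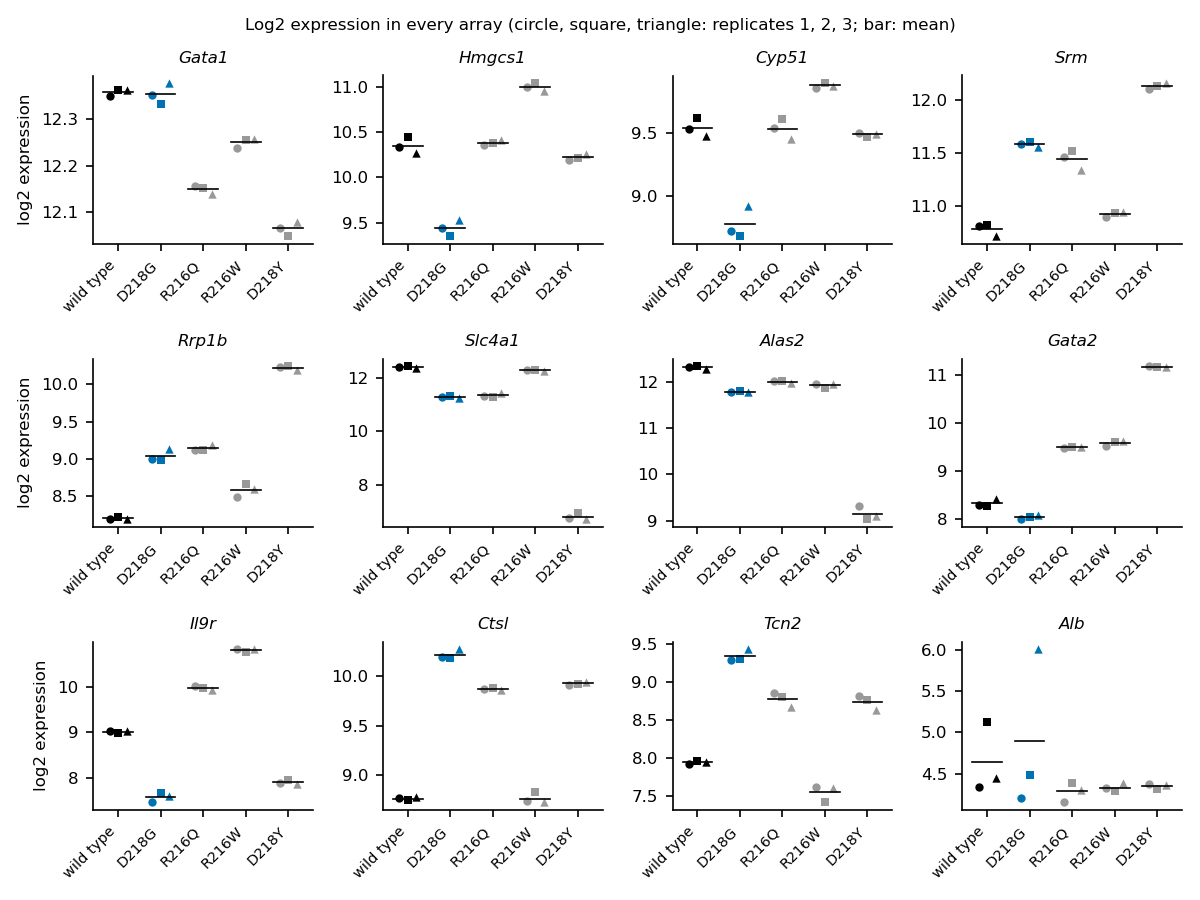
Log2 expression (y axis, a scale of its own in each panel) of 12 genes in each of 15 arrays, by line (x axis). Wild type is black, D218G blue and the other lines grey, symbols mark replicates and bars the group mean. Hmgcs1 and Gata2 are lowest in D218G, Ctsl and Tcn2 highest, and Alb shows replicate 3 of D218G apart at 6.01.

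Genes that restrain the cell cycle were lower in D218G. Of 25 measured 16 fell and 1 rose in both fits (median -0.19), or 10 and 1 in the 6 arrays alone. Of all genes 7.77% fell and 10.3% rose, or 9.23% and 8.82% without replicate 3. In the 6 arrays alone 889 of all 19933 genes were lower and 1217 higher. Btg2, an antiproliferative factor, read 10.44, 10.49 and 10.55 in the D218G arrays and 11.24, 11.26 and 11.31 in the wild type arrays (log2 fold change -0.77 ± 0.04 SE, adjusted p = 8.20e-09). The groups did not overlap, and Btg2 was also lower than in R216Q (-0.70), R216W (-0.61) and D218Y (-0.15). It was the 1 member of the list lower than in every line. Against D218Y 13 of 25 members were higher in D218G and 3 lower (15.6% and 17.4% of all genes). Without replicate 3 these were 15 and 3 (26.2% and 19.8%). Against R216Q 3 were higher and 8 lower (6.87% and 6.52%), and against R216W 3 and 14 (11.3% and 10.7%). The stress-response genes Gadd45a (-0.76 ± 0.06) and Gadd45g (-0.52 ± 0.07), the p53 target Sesn1 (-0.47 ± 0.04) and the CDK inhibitor genes Cdkn2c (-0.34 ± 0.05) and Cdkn1b (-0.25 ± 0.04) fell. The member that rose was Tob1, a relative of Btg2 (0.49 ± 0.05).

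Genes of DNA replication went both ways against wild type. Of 30 S phase genes 5 were higher and 3 lower (median 0.04), against 10.3% and 7.77% of all genes. Without replicate 3 they were 4 and 3, against 8.82% and 9.23%. In the 6 arrays alone they were 2 and 0, against 1217 and 889 of all 19933 genes. In direct comparisons, 20 of 30 were higher in D218G than in R216Q (6.87% of all genes), 20 than in D218Y (15.6%) and 13 than in R216W (11.3%), with 0, 0 and 1 lower. Without replicate 3 these were 16, 19 and 12 higher (6.32%, 26.2% and 11.6% of all genes), with 0, 0 and 2 lower. Gins2, a subunit of the replicative helicase complex, was at 0.12, adjusted p = 0.0703 against wild type, but was higher than in D218Y (0.73, adjusted p = 3.24e-09) and R216Q (0.38, adjusted p = 1.61e-05). Orc1, of the origin recognition complex, was higher than in all other lines with all arrays, but not called against wild type without replicate 3 (0.13, adjusted p = 0.148). Ung, a uracil glycosylase (0.33 ± 0.06), and Cdt1, the licensing factor (0.21 ± 0.04), rose. Of 27 mitosis genes 10 fell and 0 rose (median -0.09), or 13 and 0 without replicate 3. Over all genes 7.77% fell with all arrays and 9.23% without replicate 3. In the 6 arrays alone 4 mitosis genes were lower, against 889 of all 19933 genes. Against D218Y 21 mitosis genes were higher in D218G and 1 lower (15.6% and 17.4% of all genes). Without replicate 3 these counts were the same (26.2% and 19.8%). Against R216Q 9 were higher and 1 lower (6.87% and 6.52%), and against R216W 5 and 2 (11.3% and 10.7%). Cenpf, a kinetochore protein (-0.35 ± 0.04), and Kif23, a kinesin of cell division (-0.28 ± 0.04), fell most.

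**Figure D4:**
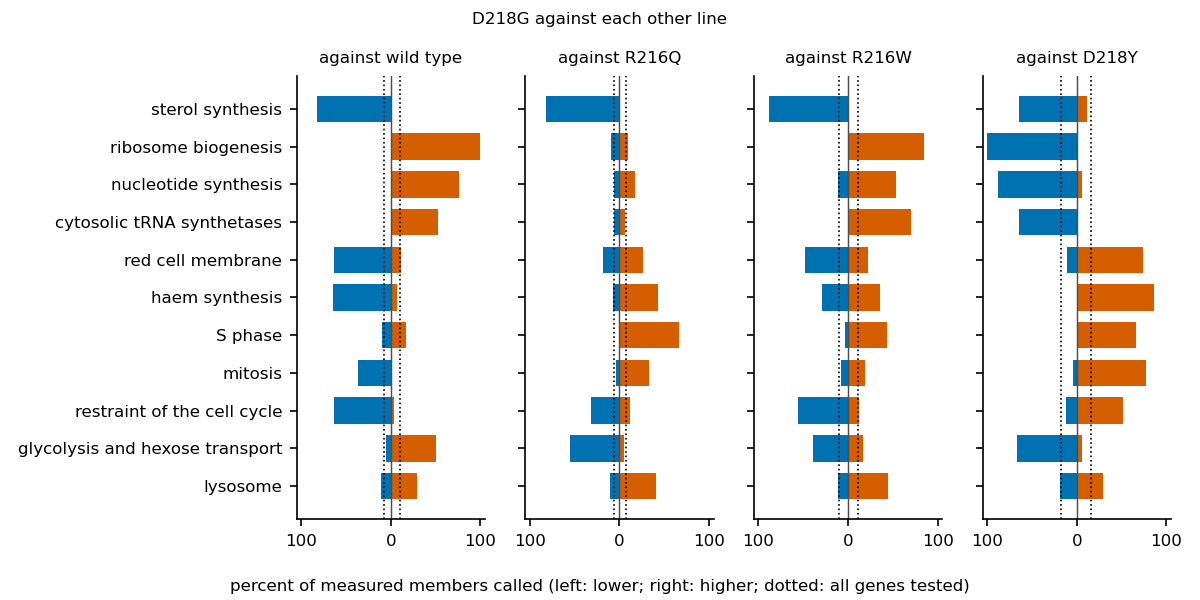
Share of measured members of 11 gene lists (y axis) called lower (blue, left) or higher (orange, right) in D218G, in percent (x axis), against wild type, R216Q, R216W and D218Y. Dotted lines give the shares over all genes tested. Sterol synthesis bars point mainly left in all 4 panels, while ribosome biogenesis bars point right against wild type (33 of 33) and left against D218Y (33 of 33).

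Of 18 glycolysis and hexose transport genes 9 rose and 1 fell (median 0.17), against 10.3% higher and 7.77% lower of all genes. Without replicate 3 they were 9 and 2, against 8.82% and 9.23%. Pfkm, the muscle-type phosphofructokinase, read 10.81, 10.83 and 10.88 in the D218G arrays and 9.70, 9.64 and 9.69 in the wild type arrays (log2 fold change 1.16 ± 0.04 SE, adjusted p = 1.17e-10, 2.24-fold higher). The groups were over a unit apart. Pfkp, the platelet-type form (0.78 ± 0.06), the hexokinase gene Hk2 (0.73 ± 0.09) and Pgam1 (0.55 ± 0.06) rose. Pdk1, which keeps pyruvate from the mitochondria, fell (-0.36 ± 0.08). D218G was lower than R216Q in 10 of these genes and lower than D218Y in 12, with 1 higher in each and the same counts without replicate 3. Of all genes 6.52% and 17.4% were lower in these comparisons with all arrays, and 6.87% and 15.6% higher. Without replicate 3 these shares were 8.76% and 19.8% lower, and 6.32% and 26.2% higher.

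Lysosomal genes held some of the largest rises, though 16 of 27 were not called (8 rose and 3 fell, or 8 and 2 without replicate 3). Over all genes 10.3% rose and 7.77% fell, or 8.82% and 9.23% without replicate 3. Ctsl, the protease cathepsin L, read 10.20, 10.19 and 10.28 in the D218G arrays and 8.77, 8.75 and 8.78 in the wild type arrays, and the groups were far apart (log2 fold change 1.46 ± 0.04 SE, adjusted p = 1.06e-11, 2.74-fold higher). It was also higher than in every other mutant line (differences 0.35, 1.46 and 0.29 against R216Q, R216W and D218Y). Lgmn, the protease legumain (1.16 ± 0.07), and Gaa, the lysosomal alpha-glucosidase (0.40 ± 0.05), rose. Ctsc, cathepsin C, fell (-0.91 ± 0.13). Of 28 autophagy genes 9 fell and 1 rose, against 7.77% lower and 10.3% higher of all genes. Without replicate 3 they were 11 and 1, against 9.23% and 8.82%. Among those that fell were Atg9a, the membrane scramblase of autophagosomes (-0.42 ± 0.04), and Pink1, the kinase that marks damaged mitochondria (-0.41 ± 0.05).

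Glutathione and thioredoxin genes went both ways, with 7 of 32 higher and 8 lower (7 and 9 without replicate 3, 6 and 4 in the 6 arrays alone). The shares of all genes were 10.3% higher and 7.77% lower, or 8.82% and 9.23% without replicate 3. In the 6 arrays alone 1217 of all 19933 genes were higher and 889 lower. Gsta4, a glutathione transferase that clears lipid aldehydes, read 9.05, 9.02 and 9.12 in the D218G arrays and 7.26, 7.55 and 7.22 in the wild type arrays, with a gap of over a unit between the groups (log2 fold change 1.72 ± 0.07 SE, adjusted p = 1.22e-09). Gsto1, another transferase, rose (0.66 ± 0.06), while Gstt1 (-1.21 ± 0.11) and Mgst3 (-0.57 ± 0.08), further members of the transferase families, fell. Of 26 ATF4 targets and amino acid supply genes 9 rose and 2 fell, against 10.3% higher and 7.77% lower of all genes. Without replicate 3 they were 10 and 3, against 8.82% and 9.23%. Mthfd1, of the folate cycle (0.68 ± 0.03), and the amino acid transporter gene Slc7a6 (0.79 ± 0.08) rose, and Slc6a9, the glycine transporter gene that feeds haem synthesis, fell (-0.57 ± 0.04).

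The largest changes were taken from the 1650 genes higher (8.28%) and 1379 lower (6.92%) that were called in both fits and whose arrays did not overlap. The largest fall was that of Slc22a4, the ergothioneine transporter gene, at 7.47, 7.50 and 7.63 in the D218G arrays and 10.06, 9.88 and 9.93 in the wild type arrays (log2 fold change -2.42 ± 0.06 SE, adjusted p = 8.13e-12, 5.36-fold lower). D218G arrays lay more than 2 units below. Il1bos, a transcript antisense to the interleukin 1 beta gene, read 5.78, 5.89 and 6.14 in the D218G arrays and 8.33, 8.34 and 8.11 in the wild type arrays (log2 fold change -2.33 ± 0.10 SE, adjusted p = 1.31e-09). Its groups did not overlap, and whether the probe set tells it from the gene on the other strand was not checked. Besides Hba-x, Plek, Il9r, Slc14a1, Tubb1 and Gstt1, given above, the 15 largest falls held these further genes. They were Nek6, a mitotic kinase (-1.87 ± 0.07), Cpne7, a calcium-binding copine (-1.69 ± 0.07), Rgs18, a regulator of G protein signalling in platelets (-1.63 ± 0.11), and Aqp8, a water channel (-1.36 ± 0.06). Rragd, a GTPase of amino acid sensing (-1.27 ± 0.08), Art4, which carries the Dombrock blood group (-1.25 ± 0.05), and Mocs1, of molybdenum cofactor synthesis (-1.24 ± 0.04), were the others.

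After Gsta4 and Ctsl, and before Pfkm and Lgmn, given above, the largest rises were those of Ccnb1ip1, a ubiquitin ligase of cyclin B (1.41 ± 0.09), and Tcn2, the vitamin B12 carrier. Tcn2 read 9.29, 9.30 and 9.43 in the D218G arrays and 7.93, 7.96 and 7.95 in the wild type arrays (log2 fold change 1.39 ± 0.07 SE, adjusted p = 3.88e-09). The groups were over a unit apart, and in the other mutant lines Tcn2 ran from 7.42 to 8.85. Ampd2, an AMP deaminase (1.28 ± 0.05), rose too. Of the next in size, Fhdc1, a formin (1.15 ± 0.11), Ptk6, a tyrosine kinase (1.14 ± 0.13), Mboat2, a phospholipid acyltransferase (1.14 ± 0.05), and Phlda1 (1.13 ± 0.05) rose. Ampd2 and Pfkm were higher than in R216W (differences 2.23 and 1.89) but did not pass against D218Y (0.02, adjusted p = 0.803 and 0.02, adjusted p = 0.716). Ptk6 rested partly on replicate 3, at 7.41 against 6.91 and 6.83, and was at 0.96, adjusted p = 6.51e-06 without it.

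A gene was called apart from every line when it passed in the same direction against wild type and each other mutant line. These 4 comparisons share the D218G arrays. There were 176 such genes higher (0.883%) and 178 lower (0.893%), or 168 and 312 without replicate 3, with 130 and 174 found both ways. Of the 17 sterol synthesis genes 8 were lower than in every line, and the same 8 without replicate 3. They were Hmgcs1, Mvd, Sqle, Lss, Cyp51, Msmo1, Sc5d and Dhcr7. Insig1 and Stard4 were also lower than in every line, both ways.

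Among the genes furthest from every other line, Smim3, a small membrane protein, read 8.19, 8.09 and 8.34 in the D218G arrays and 9.15, 9.20 and 9.25 in the wild type arrays, and 9.29 to 10.14 in the other mutant lines. D218G was thus below all 12 other arrays (-1.10 against the nearest mutant line, D218Y). Eef2k, the kinase that brakes translation elongation (-0.66 ± 0.05 against wild type), the small GTPase gene Rasl11a (-0.85 ± 0.06), Inka1 (-0.87 ± 0.06), an inhibitor of a p21-activated kinase, and the exchange factor gene Arhgef25 (-0.65 ± 0.05) were also lower than in every line. Higher than in every line were Thra, the thyroid hormone receptor alpha (0.62 ± 0.05), Hey1, a Notch target (0.67 ± 0.07), the inositol kinase gene Itpka (1.02 ± 0.08), Ppp2r5b, a phosphatase subunit (0.91 ± 0.06), and Dhrs3, which acts on retinal (0.82 ± 0.08). Thra read 9.41, 9.50 and 9.56 in the D218G arrays and 8.78, 8.88 and 8.94 in the wild type arrays, and at most 8.88 in the other mutant lines. Its D218G arrays were thus above every other array.

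**Figure D5:**
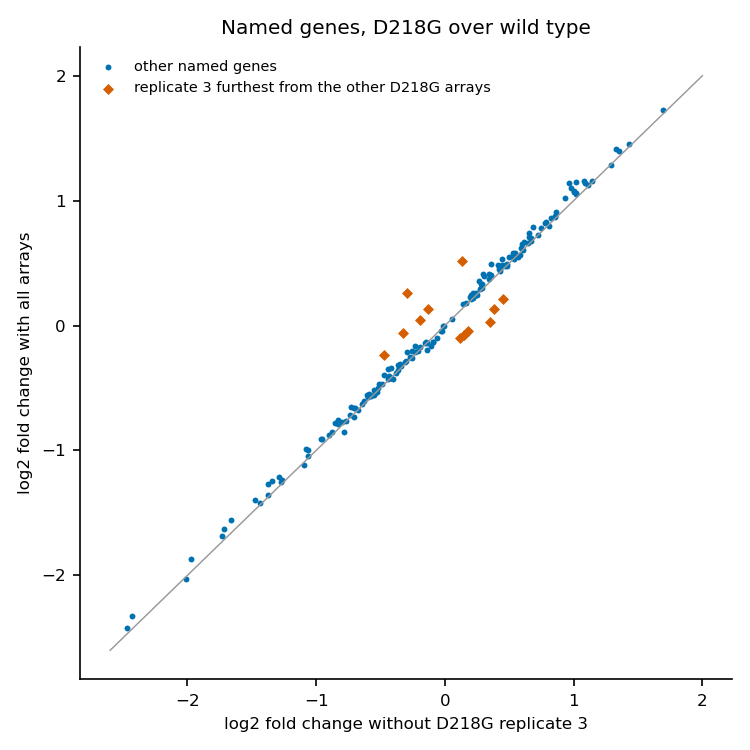
Log2 fold change of D218G over wild type with all arrays (y axis) against the value without D218G replicate 3 (x axis), for the 177 named genes. The line marks equal values. Orange diamonds are the 12 genes in which replicate 3 lay furthest from the other D218G arrays, and they lie off the line.

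The 6 genes in which replicate 3 lay furthest above the other D218G arrays and the 6 in which it lay furthest below were examined singly. Alb, the albumin gene of liver, read 4.21, 4.48 and 6.01 in the D218G arrays and 4.34, 5.13 and 4.45 in the wild type arrays. Replicate 3 was the highest of all 15 arrays, and wild type replicate 2 the next. Above were also Serpina1c, Dppa4, Gpr21, Zfp229 and Zfp931, and below Prp2, Klk1b11, F2rl3, Cyp2d10, Pou2af1 and Kbtbd11. None of the 12 was called with all arrays, while Gpr21 (-0.48, adjusted p = 0.00658) and Cyp2d10 (0.45, adjusted p = 0.0018) were called without replicate 3. Replicate 3 also deviated with wild type replicate 2 over all genes (correlation of deviations from the group means 0.54). With genes split by mean level into 4 equal bins, replicate 3 lay below the mean of the other D218G arrays in the 2 lower bins (medians -0.06 and -0.16) and above it in the 2 upper bins (0.06 and 0.06).

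Markers of other blood and tissue cells were rarely called, as were other genes at their low levels. Of 22 granulocyte and monocyte markers 0 rose and 0 fell (2 and 0 without replicate 3), of 18 lymphoid markers 0 and 0, and of 18 stroma and fibroblast markers 0 and 0, both with and without it. The 2 called without replicate 3 were Itgam (0.19, adjusted p = 0.0234) and Mpo (0.24, adjusted p = 0.0467), the integrin CD11b and the neutrophil peroxidase. The median levels of these 3 lists ran from 5.02 to 5.86 over the 6 arrays, lowest in replicate 3 of D218G for each list. Over all levels 18.1% of genes were called. In the lowest bin of mean level (3.10 to 5.22), however, 18 of 4984 genes rose and 44 fell. In the next bin (5.22 to 6.48) 54 of 4983 rose and 74 fell. Counts of 0 at such levels therefore cannot show whether these cells were present. The part of such cells in the results was not tested. The median level of the 19 mast cell markers ran from 4.62 to 4.96, again lowest in that array. Of these markers Srgn, a proteoglycan core protein, rose (0.49 ± 0.10) and the protease gene Mcpt2 fell (-0.34 ± 0.08), the same count of 1 and 1 as without replicate 3. Tph1, the first enzyme of serotonin synthesis, was at -0.14, adjusted p = 0.268, and the zinc transporter gene Slc30a2 at -0.17, adjusted p = 0.218. Both were higher in the other mutant lines. As D218G minus R216Q, R216W and D218Y, Tph1 was at -2.71, -2.79 and -3.44, and Slc30a2 at -3.55, -3.56 and -3.05.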

How the data were processed

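Total RNA of 15 cultures was measured on Affymetrix mouse gene arrays. As deposited, each probe set has a log2 expression value that the authors made with RMA in Partek 6.6, per the submitters' processing notes. Its settings were not given in the sources used here. Array number limits the precision. Of 28350 probe sets 21780 had 1 gene symbol in the platform annotation, 1618 several and 4952 none. The probe set with the highest mean stood for each of 19933 genes.

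One mean per line was fitted over all 15 arrays with limma 3.58.1 in R 4.3.3, with Benjamini-Hochberg adjustment over all genes and a threshold of 0.05, and repeated without D218G replicate 3. Every adjusted p is from this model unless another fit is named. The fit was tested on simulated data with independent noise in each gene and array. These hold no shift of a whole array, so the test cannot speak to the deviation of replicate 3. Of 50 planted changes of 0.25 on the log2 scale 44% were called, and of 50 of 0.5 90%. Alternatives covered normalization, filters, probe set choice, the arrays in the fit, a replicate block and each replicate left out.

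The comparison and the 33 gene lists were chosen with earlier results of these data known. Genes were named by rule: the 15 largest rises and falls called in both fits without overlap, up to 4 members per list, up to 8 per direction apart from every line, 12 genes of replicate 3 and a fixed set. Other list members were named after their values were seen. Amino acid sequence was not used here.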

Additional observations from a re-analysis of the deposited data

Results flagged for a closer look

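Gata2 moved one way from wild type in D218G and the other way in the remaining mutant lines. It was -0.29 in D218G but 1.17 in R216Q, 1.26 in R216W and 2.85 in D218Y, as log2 fold changes over the same wild type arrays. The direct differences, which share the D218G arrays, were -1.46 against R216Q (SE 0.04, limma adjusted p = 2.87e-11), -1.54 against R216W (adjusted p = 2.69e-12) and -3.14 against D218Y (adjusted p = 1.73e-15).

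Spi1 was at -0.78 in D218G, -0.93 in R216Q and -0.78 in R216W but 0.78 in D218Y, so that D218Y was the line on the other side of wild type. D218G minus D218Y gave a difference of -1.56 between the substitutions at the same residue (SE 0.10, limma adjusted p = 7.6e-09). Il9r was at -1.42 in D218G but 0.96 in R216Q and 1.79 in R216W. Its difference was -2.38 against R216Q (SE 0.05, adjusted p = 5.41e-13) and -3.21 against R216W (adjusted p = 8.72e-15).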

How the results depend on the processing

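The count of genes called between D218G and wild type moved most with the arrays in the fit. With only the compared arrays it was 2106 (1217 higher, 889 lower), or 2328 without D218G replicate 3 (1129 higher), against 3601 with all lines. The comparison with R216Q gave 1541 against 2668 in the same way. Leaving out 1 array at a time gave 2931 to 3598 genes. The samples shared only a replicate number: deviations of same-numbered D218G and wild type arrays correlated at 0.02, -0.50 and -0.48. With the replicate block 3297 genes passed (1910 higher, 1387 lower). Without D218G replicate 3 and wild type replicate 2, a choice made after seeing the data, 3255 passed (1566 higher, 1689 lower). With the array median as a covariate 4329 passed (2305 higher, 2024 lower), and after quantile normalization 4049 (2133 higher, 1916 lower). None of the 177 named genes was called in opposite directions under the alternatives run. The compared arrays alone ended the call of 9 of them, and 10 without D218G replicate 3 as well. The smallest change called was 0.09, and 3 arrays a group limit what smaller changes can be seen.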

Other observations

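A list of 22 liver genes was drawn up after Alb was seen to be high in D218G replicate 3. Of the 18 measured, replicate 3 was above the other D218G arrays in 7 and the highest of all 15 arrays in 3, which were Alb, Trf and Serpina1c. The median difference between replicate 3 and the mean of the other D218G arrays was 0.01 over the list.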
